A study of Mus musculus with 9 samples.

Results

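The regions described here carried a called XBP1 peak in all 4 operated livers of the series and none in unoperated, basal liver. The members were chosen by these peak calls alone: after merging overlapping peaks (1 bp or more) of the 5 lists from livers without XBP1 silencing, the merged regions with a peak in each operated list and no basal peak were kept. Of 28099 merged regions, 1443 (5.14%) met this rule and are called gained regions below. The name refers to peak calls only, since the basal list is the shortest of the 5, with 2482 peaks, and the read depth of the libraries is unknown here. A shallower basal library and fewer occupied sites cannot be told apart.

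Livers came from wildtype C57Bl6-J mice, operated at 8 weeks of age, and XBP1-bound chromatin was precipitated with the antibody M-186 and sequenced. The 5 unsilenced libraries were 1 of basal liver, 2 taken at 6 h and 48 h from mice with partial hepatectomy (removal of most of the liver), and 2 taken at the same times from sham-operated mice, in which the abdomen was opened and the lobes were lifted but not removed. In 3 further livers, basal and at 6 h and 48 h after hepatectomy, XBP1 had been silenced for 7 days with an adenovirus expressing a short hairpin RNA (shXBP1), after clodronate liposomes, which deplete macrophages, had been given to lower the viral dose. There was 1 library per condition, and the labels do not say whether it came from 1 mouse or a pool, and neither is it stated whether the unsilenced mice received the control virus that the protocol names. No difference between conditions could therefore be set against a spread between animals, no p-value was computed, and the intervals of shares are exact 95% Clopper-Pearson intervals that cover counting error only. Operations follow the sample titles. By the order of their scores, given below, each 48 h list was more like the 6 h list of the other operation than that of its own. Whether hepatectomy and sham lists were exchanged at 1 of the times was not tested, and every value named by operation rests on the titles.

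XBP1 is a basic leucine zipper transcription factor of the unfolded protein response. When unfolded protein builds up in the endoplasmic reticulum, the sensor IRE1 removes a short intron from the Xbp1 messenger RNA, and the spliced form encodes the active factor, which raises chaperones, protein folding enzymes, secretory machinery and the degradation of misfolded protein. In liver, XBP1 is known for its part in secretion and in lipid synthesis. Surgery itself sets off the acute-phase response of hepatocytes, and hepatectomy in addition sets off their return to the cell cycle. Peak lists hold no expression values, so the labelled tissue could not be checked against marker genes, and without a genome of the same build the regions are given by position only.

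The rule required peaks in lists of very unlike length, and the 48 h lists set most of the outcome. Regions without a basal peak that missed the rule by the 48 h sham list alone numbered 2593, and those that missed it by the 48 h hepatectomy list alone numbered 886. Only 29 regions missed it by the 6 h hepatectomy list and 8 by the 6 h sham list, and 1 region had both 48 h peaks with neither 6 h peak. The gained regions took up 31.6% of the 4622 peaks in the 48 h sham list and 20.8% of the 7212 peaks in the 48 h hepatectomy list. In the 6 h lists they took up 6.62% of the hepatectomy peaks and 6.44% of the sham peaks.

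On the basal side the rule turned on whether a basal peak touched the region. The gained region nearest to a basal peak lay on chromosome 15 (81560227 to 81561020, mm9), 212 bp from it, and 28 gained regions (1.94%) had a basal peak within 1 kb. The median distance to a basal peak was 121 kb. Other regions without a basal peak had similar values. They were 1.78% and 149 kb for regions with a peak in both 6 h lists and neither 48 h list. Regions that missed the rule by the 48 h sham list alone had 1.04% and 133 kb, and by the 48 h hepatectomy list alone 1.47% and 125 kb. Just outside the rule, 224 of the 1859 regions with a peak in all 5 lists (12.0%) had a basal score under 10. The weakest basal calls that excluded a region, with a score of 5.08, lay on chromosome 1 (135027118 to 135028100) and chromosome 11 (102889416 to 102890315). The score is the value the authors deposited for each peak, taken as −log10 of its p-value, and it is used only to order peaks within a list.

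Nearly all gained regions had a stretch of DNA common to the 4 operated lists. The rule used these same peaks and joined those that overlap, so a common stretch largely follows from the choice. In 1407 of the 1443 (97.5%) a stretch was covered by all 4 lists, with a median length of 259 bp. This stretch was a median of 38.4% of the region, which itself had a median width of 692 bp, against 839 bp for the regions in all 5 lists and 440 bp for all merged regions. The other 36 gained regions were chained from neighbouring peaks without a base common to all 4. The widest gained region, on chromosome 19 (23208433 to 23211535), was covered by a single 3103 bp peak 6 h after the sham operation. Each of the other operated lists had 2 peaks there, and the better-scoring one was 2355 bp wide 6 h after hepatectomy, 426 bp 48 h after hepatectomy and 546 bp 48 h after sham.

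Peaks in the gained regions were wide at 6 h and narrow at 48 h. The median width was 617 bp 6 h after hepatectomy and 601 bp 6 h after sham, against 297 bp and 346 bp in the 48 h lists of the same operations. The regions in all 5 lists had the same order, with 765 bp and 709 bp at 6 h against 422 bp and 464 bp at 48 h, and so did the whole lists, with medians of 429 bp and 412 bp against 290 bp and 379 bp. The shortest peak that a list held also differed, at 190 bp in the 48 h hepatectomy list, 266 bp in the 48 h sham list, 259 bp in the 6 h hepatectomy list and 249 bp in the 6 h sham list, and its part in these widths was not tested. Several peaks of 1 list fell into the same gained region most often 48 h after hepatectomy, in 55 regions, and 6 h after sham, in 42 regions, against 19 for the 6 h hepatectomy list and 18 for the 48 h sham list.

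**Figure D1:**
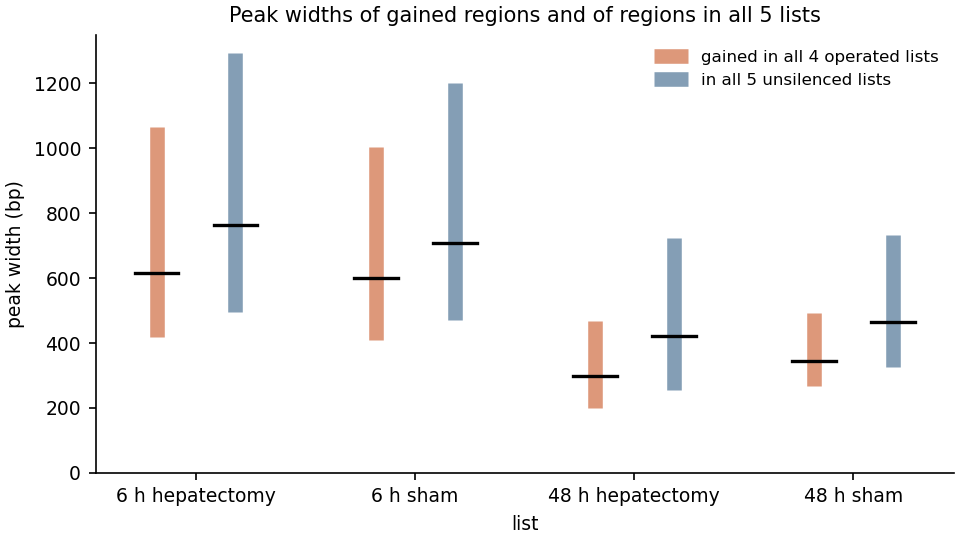
Width of the peak with the best score in each region (vertical axis, bp) for the 1443 gained regions and the 1859 regions in all 5 lists, by list. Bars run from the 10th to the 90th percentile over regions and the black line is the median, which for gained regions was 617 bp and 601 bp at 6 h against 297 bp and 346 bp at 48 h.

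In every operated list the median score of the gained regions lay below that of the regions that basal liver shared. Against the whole list, the median gained region stood at 16.4% of the list's length 6 h after hepatectomy and 15.4% 6 h after sham, counted from the best score. In the 48 h lists it stood at 44.8% after hepatectomy and 59.1% after sham, in the latter past the middle of the list. The score of a gained region 6 h after hepatectomy ran from 6.86 to 413, with a median of 49.5, against a median of 110 for the regions in all 5 lists. The 6 h sham scores had a median of 35.4 against 65.0. At 48 h the medians were 12.7 against 22.6 after hepatectomy and 12.6 against 25.4 after sham. Since a peak in basal liver decides membership, these values only describe the choice. The same holds for the share of gained regions among the 3302 regions in all 4 operated lists, which went from 74.6% in the lowest decile of the 6 h hepatectomy score to 1.21% in the highest.

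**Figure D2:**
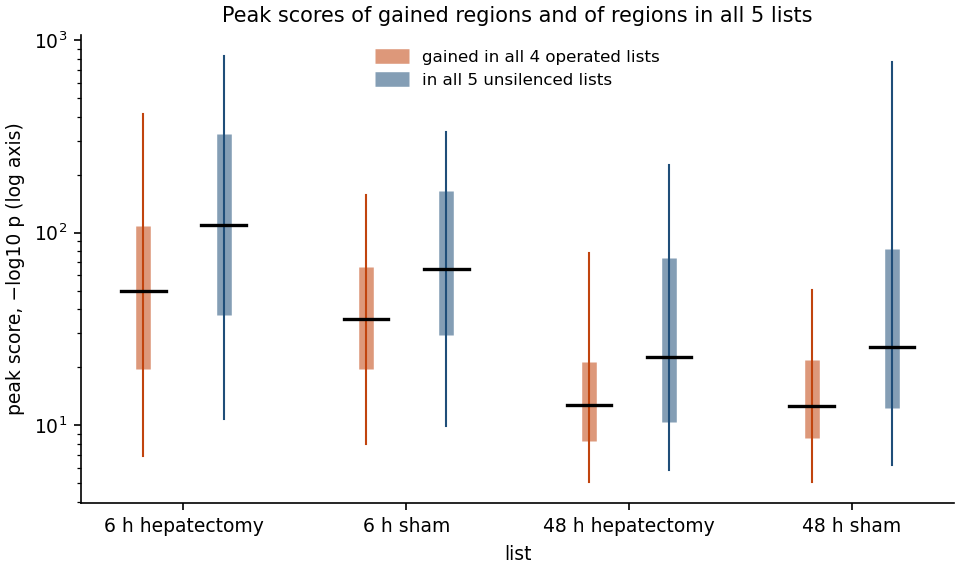
Peak score (−log10 of the p-value, log axis) of the gained regions and of the regions in all 5 lists in each operated list. Thin lines span the lowest to the highest region, bars the 10th to the 90th percentile, and black lines mark medians, such as 49.5 against 110 6 h after hepatectomy; scores are to be compared within a list only.

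Few gained regions scored high in all 4 operated lists at once. In each of the 4 operated lists, 5 of the 1443 scored above the median of the regions in all 5 lists. How many of the latter pass that joint bar was not counted. Of the 924 regions above the median of regions in all 4 operated lists, in each list, 50 (5.41%) were gained. Of all 3302 regions in the 4 operated lists, 1443 (43.7%) were gained. These scores come from lists that the rule used, so the counts only describe the choice. The 5 regions lay on chromosome 12 (105279423 to 105280545), chromosome 14 (63379752 to 63380356), chromosome 16 (57231233 to 57231972), chromosome 19 (3708747 to 3709833) and chromosome 8 (112302090 to 112303422), and were singled out after their values were seen. Each also carried a silenced 6 h hepatectomy peak, as did 92.4% of the gained regions in the highest decile of the 6 h hepatectomy score. The region on chromosome 19 had a basal peak 352 bp away, while the nearest basal peak to the others was between 75.7 kb and 787 kb away. Among the first 2482 peaks of each operated list, as many as the basal list holds, 111 gained regions (7.69%) had a peak in all 4. In single lists it was 32.9% and 34.1% at 6 h after hepatectomy and sham, and 33.5% and 44.6% at 48 h. This cut takes a far larger part of the 4622 peaks 48 h after sham than of the 22071 peaks 6 h after hepatectomy. These shares were not counted for the regions in all 5 lists. The median rank of those was 1185 and 1190 at 6 h after hepatectomy and sham, and 1179 and 1024 at 48 h, well inside the cut.

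Ordered by their worst place over the 4 lists, given as a share of the list's length, the region on chromosome 14 (63379752 to 63380356) came first. Its scores were 158 and 83.0 at 6 h after hepatectomy and sham, and 27.9 and 44.7 at 48 h, so that it stood in the first 12.0% of every list. The region on chromosome 9 (21954779 to 21955872) followed, with 89.7 and 54.2 at 6 h and 26.6 and 38.5 at 48 h after hepatectomy and sham. Next was chromosome 17 (32040864 to 32041615), with 188 and 57.2 at 6 h and 25.3 and 45.6 at 48 h. In each of these regions the 48 h sham peak held a better place among the gained regions than the 48 h hepatectomy peak. The ordering favours this, since gained regions stood lower in the 48 h sham list (median 59.1% of its length) than in the 48 h hepatectomy list (44.8%).

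The following regions by that order included 2 on chromosome 7, at 117307359 to 117308118 and at 117161505 to 117162186, which scored 99.7 and 83.0 6 h after hepatectomy. The region on chromosome 12 named above stood at place 5, with 218 and 122 at 6 h and 30.3 and 34.7 at 48 h. The rest of the first 12 lay on chromosomes 5 (135478008 to 135478612), 16 (57231233 to 57231972), 8 (112302090 to 112303422), 7 (30600734 to 30601694), 10 (75236064 to 75236541) and 6 (134070145 to 134071180). Their scores ran from 51.9 to 196 in the 6 h hepatectomy list and from 27.9 to 31.8 in the 48 h sham list. Each of the 12 had a peak in the silenced 6 h hepatectomy list and none in the other silenced lists. They were picked for high scores. Of all gained regions 51.4% had a silenced 6 h hepatectomy peak, and 82.8% and 92.4% in deciles 9 and 10 of the 6 h hepatectomy score. Each of the other silenced lists reached only 0.139% of the gained regions.

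The highest scores of single lists were reached elsewhere. Chromosome 11 (118304300 to 118305080) had the highest 6 h hepatectomy score among gained regions, 413, beside 92.6 at 6 h after sham, 28.0 at 48 h after hepatectomy and 15.8 at 48 h after sham. Chromosome 1 (82812402 to 82813078) led the 6 h sham list with 158, beside 90.8, 49.5 and 25.5 in the 6 h hepatectomy, 48 h hepatectomy and 48 h sham lists. The 48 h hepatectomy list was led by another site of chromosome 1 (121437232 to 121438097) with 78.2, which scored 51.9 at 6 h after hepatectomy, 76.1 at 6 h after sham and 26.6 at 48 h after sham. No region led more than 1 list, and the leader of the 48 h sham list was chromosome 8 (113557343 to 113558196) with 50.3, beside 153, 66.2 and 18.7 in the 6 h hepatectomy, 6 h sham and 48 h hepatectomy lists. The region on chromosome 16 (5532542 to 5533440) was at place 2 in both hepatectomy lists, with 332 at 6 h and 71.4 at 48 h, and stood 12th of the gained regions in the 6 h sham list and 84th in the 48 h sham list.

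Across the 1443 gained regions, the order of scores was most alike between both 6 h livers and least alike between both 48 h livers. Spearman's rho was 0.60 between the 6 h hepatectomy and 6 h sham lists and 0.19 between the 48 h hepatectomy and 48 h sham lists. Each 48 h list was ordered more like the 6 h list of the other operation than like that of its own. The 48 h sham order had a rho of 0.41 with the 6 h hepatectomy order and 0.28 with the 6 h sham order. The 48 h hepatectomy order had 0.42 with the 6 h sham order and 0.31 with the 6 h hepatectomy order. The same crossing was seen over the 1859 regions in all 5 lists, where rho was 0.76 and 0.68 for the 48 h sham list and 0.79 and 0.67 for the 48 h hepatectomy list, in the same order. In the 722 gained regions of lower 6 h hepatectomy score it did not hold for the 48 h sham list, with 0.13 against 0.16, and in the 721 of higher score it did, with 0.26 against 0.09. For the 48 h hepatectomy list it held in both, with 0.28 against 0.12 and 0.40 against 0.20. The split was made on the 6 h hepatectomy score itself, which narrows the range of that score and so can lower its rho. The parts therefore cannot decide whether the crossing depends on score. These are correlations across regions of single libraries, whose points share position and peak width, and what lies behind the crossing was not tested.

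**Figure D3:**
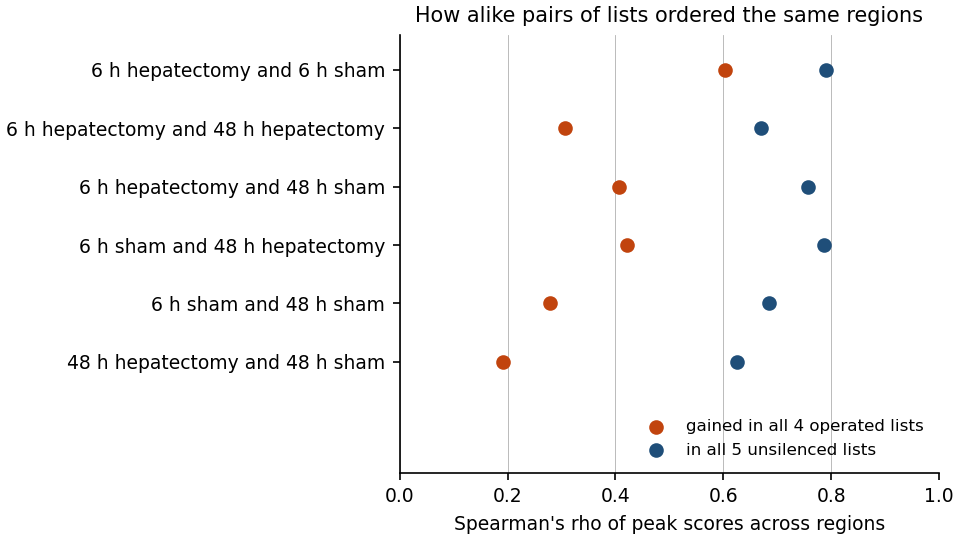
Spearman's rho of peak scores (horizontal axis) for each pair of operated lists, over the 1443 gained regions and the 1859 regions in all 5 lists. For gained regions the 48 h sham list sits at 0.41 with 6 h hepatectomy and 0.28 with 6 h sham, and the 48 h hepatectomy list at 0.42 with 6 h sham and 0.31 with 6 h hepatectomy.

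The best 10% of the gained regions by score, 144 in each list, crossed in the same way, by small margins. Of these, 68 were common to both 6 h lists, 48 to the 6 h sham and 48 h hepatectomy lists, 40 to both hepatectomy lists, 38 to the 6 h hepatectomy and 48 h sham lists, 32 to both sham lists and 26 to both 48 h lists. Those in the best 10% of all 4 numbered 6: the 5 strong regions named above and the region on chromosome 16 at 5532542.

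At 48 h some gained regions stood high after 1 operation and in the middle of the list after the other. Among the best 25% by worst place, the region on chromosome 3 (89222054 to 89223802) scored 56.6 after hepatectomy, place 4 of the gained regions, and 14.2 after sham, where it stood 528th. Chromosome 10 (52136477 to 52137823) scored 50.2 against 14.7, and chromosome 11 (108226580 to 108227313) scored 58.2 against 15.8. Chromosome 4 (116137083 to 116137855), with 33.7 against 14.7, and another site of chromosome 10 (66372633 to 66373454), with 35.4 against 15.3, followed. Each of these 5 regions carried a silenced 6 h hepatectomy peak, as did 51.4% of all gained regions. Their 6 h hepatectomy scores, from 81.5 to 221, lay in deciles 8 to 10 of the gained regions. In these deciles the share was 74.6%, 82.8% and 92.4%.

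In the opposite direction, chromosome 13 (64254218 to 64254968) scored 49.9 at 48 h after sham, place 2 of the gained regions, and 11.5 after hepatectomy, where it stood 759th. It also stood at place 3 in the 6 h hepatectomy list, with 316, and at place 10 in the 6 h sham list, with 118. Chromosome 1 (13578801 to 13580211) scored 39.9 after sham and 11.5 after hepatectomy, and a second site of that chromosome (36996447 to 36997008) scored 31.8 and 11.5. Sites of chromosome 10 (94892847 to 94893506), with 29.2 and 11.5, and chromosome 8 (107114919 to 107116225), with 30.1 and 11.9, followed. A silenced 6 h hepatectomy peak was called in 3 of these 5, and not at chromosome 1 (13578801) or chromosome 10. Both sites without it scored 50.4 at 6 h after hepatectomy, in decile 6 of the gained regions, where the share was 58.0%. The 3 with it scored from 95.7 to 316. These 5 and the previous 5 were picked for their difference between lists of unlike length, so no change of occupancy can be read from them.

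**Figure D4:**
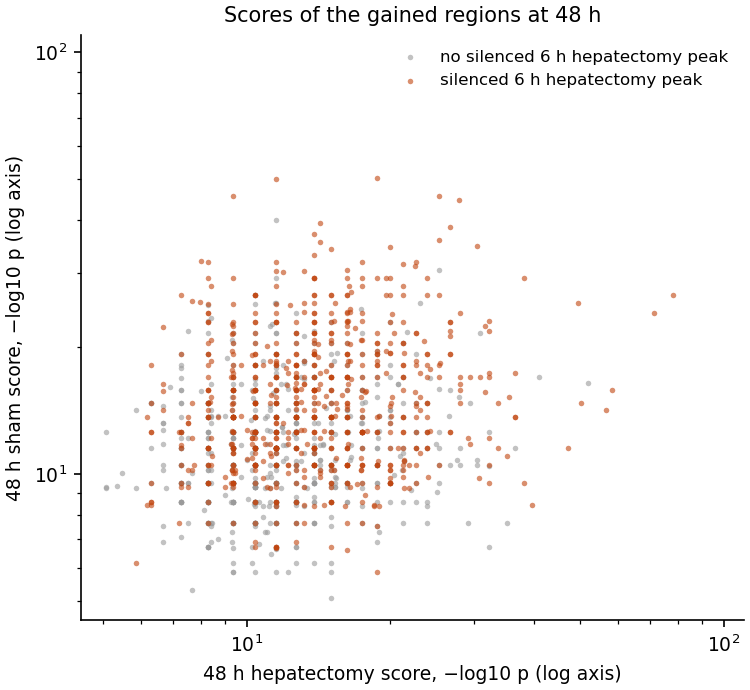
Score of each of the 1443 gained regions 48 h after hepatectomy (horizontal) and 48 h after sham (vertical), both −log10 of the p-value on log axes, with regions that had a silenced 6 h hepatectomy peak in red. The cloud has little slope (rho 0.19), and the highest score was 78.2 on the horizontal and 50.3 on the vertical axis.

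The silenced livers took no part in the rule. Of the 1443 gained regions, 741 (51.4%, 48.7 to 54.0%) had a peak in the silenced library taken 6 h after hepatectomy, against 14.9% of all merged regions and 24% of the regions with a peak in both unsilenced 6 h lists. The share was 82.5% (80.7 to 84.2%) for the regions in all 5 lists and 7.31% (6.79 to 7.86%) for the regions found in both 6 h lists only. Regions without a basal peak that were found at 6 h in both lists and at 48 h after 1 operation lay between, at 23.6% (21.9 to 25.2%) where that was hepatectomy and 25.8% (23.0 to 28.9%) where it was sham. XBP1 that remained after silencing and other signal bound by the antibody cannot be told apart.

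Most silenced peaks overlapped the stretch common to the operated livers, which the widths alone make likely. In 722 of the 741 regions (97.4%) the silenced peak shared at least a base with a stretch covered by all 4 operated lists. The median silenced peak had 333 bp, the median stretch 259 bp and the median gained region 692 bp. A peak placed anywhere in such a region would seldom miss the stretch, so no agreement of position can be read from this share. Its score had a median of 14.2 and ran from 5.87 to 164, the last at the chromosome 11 site that led the 6 h hepatectomy list, at rank 36 of the 4325 silenced peaks. The median width of the silenced peak was 333 bp, the same as that of the whole silenced list. Across the 741 regions the silenced score followed the 6 h hepatectomy score with a rho of 0.47, the 6 h sham score with 0.36, the 48 h sham score with 0.29 and the 48 h hepatectomy score with 0.19.

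The share with a silenced peak rose steadily with the unsilenced 6 h hepatectomy score. In the lowest decile of the gained regions 18 of 150 (12.0%, 7.27 to 18.3%) had a silenced peak, in decile 5 it was 64 of 130 (49.2%, 40.4 to 58.1%), and in the highest it was 133 of 144 (92.4%, 86.7 to 96.1%). Gained regions with a silenced peak had a median 6 h hepatectomy score of 67.1, against 34.9 for the 702 without. At 48 h the medians were 13.8 and 11.5 after hepatectomy and 14.3 and 11.5 after sham. Score gaps cannot be compared between lists. By rank, the medians were 2388 and 5547 of 22071 peaks 6 h after hepatectomy. In the 48 h lists they were 2747 and 3770 of 7212 peaks after hepatectomy, and 2391 and 3096 of 4622 after sham.

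At like 6 h hepatectomy score the gained regions were nearer to the other classes of regions and still lay below the regions in all 5 lists and above the other 3 classes. With the other regions weighted to the deciles of the gained regions, the share was 60.6% in the regions in all 5 lists, 51.4% in the gained regions and 34.3% in the regions of both 6 h lists only. Regions that were found after 1 operation at 48 h had 41.3% for hepatectomy and 40.5% for sham. The gap between gained regions and regions in all 5 lists thus went from 31.2 to 9.23 percentage points, and that to the regions of both 6 h lists from 44.0 to 17.1 percentage points. The classes were set by which lists called a peak, so a like score in 1 list does not make them alike in the others. The outer bins were also unlike. In decile 10 the median score was 199 in the regions in all 5 lists and 129 in the gained regions. In decile 1 it was 16.1 in the gained regions and 12.8 in the regions of both 6 h lists only. The part of this in the remaining gaps was not tested. The gap to the regions in all 5 lists was widest in decile 4, with 35.6% (27.9 to 43.8%) of the gained regions against 54.3% (41.9 to 66.3%). The regions of both 6 h lists only had 20.1% (16.5 to 24.1%) there. In decile 5 the gained regions had 49.2% (40.4 to 58.1%) and the regions in all 5 lists 51.3% (39.7 to 62.8%). In the lowest decile the gained regions and the regions in all 5 lists had nearly the same share, 12.0% and 13.2%.

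**Figure D5:**
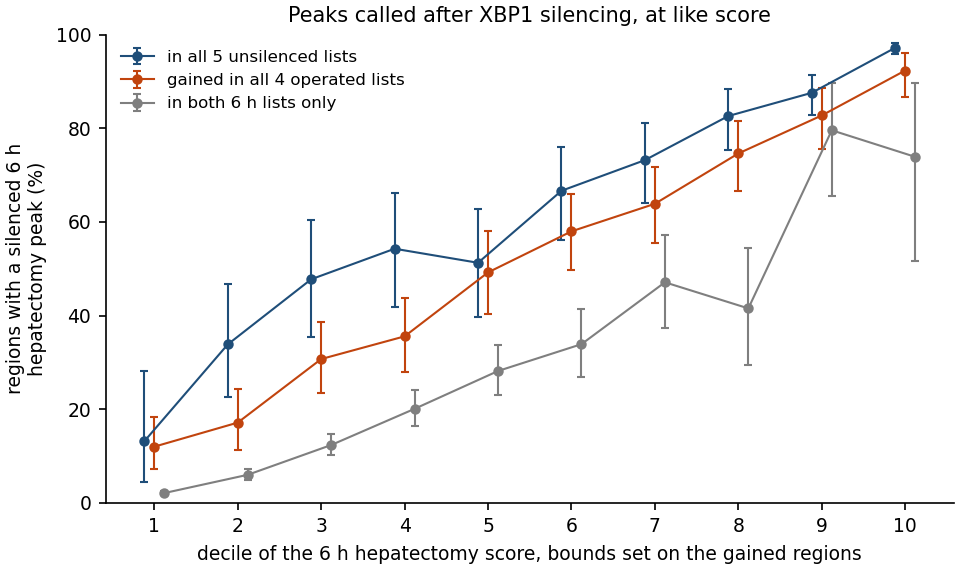
Share of regions with a silenced 6 h hepatectomy peak (vertical axis, %) by decile of the unsilenced 6 h hepatectomy score, with decile bounds set on the gained regions. Error bars are exact 95% Clopper-Pearson intervals (counting error only), and the gained regions go from 12.0% to 92.4%. Their share was above that of the regions of both 6 h lists only in each decile, with overlapping intervals in deciles 7, 9 and 10. It was below that of the regions in all 5 lists in each decile, with overlapping intervals in every one.

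Scores in the other operated livers also went with the silenced peak among gained regions of like 6 h hepatectomy score. Standardised to the same deciles, 56.8% of the gained regions above the median 6 h sham score had a silenced peak, against 46.7% of the others. For the 48 h hepatectomy score the shares were 55.9% and 47.7%, and for the 48 h sham score 57.2% and 46.9%. Each of these splits had at least 638 regions on a side.

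Among the gained regions without any silenced peak, the first by worst place over the 4 lists was on chromosome 2 (30555213 to 30555804), with scores of 40.4 and 51.2 at 6 h and 25.3 and 30.5 at 48 h after hepatectomy and sham. It was followed by chromosome 5 (125810458 to 125811145), with 70.7 and 56.0 at 6 h and 23.1 and 25.4 at 48 h, and by a second site of chromosome 5 (32760999 to 32761580), with 78.3 and 32.7 at 6 h. Then came chromosome 9 (90008028 to 90009863), 1836 bp wide, with 141 and 86.3 at 6 h and 17.4 and 24.6 at 48 h, and chromosome 7 (80682437 to 80683241), with 61.5 and 35.2 at 6 h. The chromosome 2 site lay below the median gained region (49.5) 6 h after hepatectomy, and the second chromosome 5 site and the chromosome 7 site lay below it (35.4) 6 h after sham. The highest 6 h hepatectomy score without a silenced peak was 189, on chromosome 4 (122638132 to 122639089), at rank 540 of that list. At the other end, chromosome 9 (20781708 to 20782166) had a silenced peak of score 9.25 although its unsilenced 6 h hepatectomy score was 6.91, next to the lowest of all gained regions.

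The other silenced libraries had almost no peak in gained regions. The silenced basal list, with 177 peaks, overlapped 119 merged regions (0.424%), of which 115 were among the 1859 regions in all 5 lists. It overlapped 0 of the 9422 regions of both 6 h lists only, and 2 gained regions (0.139%, 0.0168 to 0.5%). These were the chromosome 13 site at 64254218 and a region of only 289 bp on chromosome 8 (74752086 to 74752374), so both were called in basal liver with silencing and not in basal liver without it. The silenced 48 h hepatectomy list, with 102 peaks, overlapped 70 merged regions (0.249%), of which 64 were among the regions in all 5 lists. It overlapped 2 of the 9422 regions of both 6 h lists only (0.0212%), and 2 gained regions (0.139%). These gained regions were on chromosome 19 (5770673 to 5771609) and chromosome 6 (129186017 to 129186566), and the second had no silenced 6 h peak and a 6 h hepatectomy score of 18.5 beside 45.3 after sham. Peaks in both short lists had medians of 103 bp and 94 bp, against 333 bp in the silenced 6 h list.

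Gained regions were spread over chromosomes 1 to 19 and X. Between 4.23% (44 of 1039, chromosome 14) and 6.38% (67 of 1050, chromosome 19) of the merged regions of an autosome were gained, around the share of 5.14% overall. On chromosome X, 9 of 301 regions (2.99%) were gained, and X held 0.624% of the gained regions against 1.07% of all merged regions and 0.753% of the regions in all 5 lists. The median gained region had 4 other merged regions within 50 kb, the same as all merged regions. The nearest region in all 5 lists lay a median of 171 kb away and within 50 kb for 26.4%, against 210 kb and 22.5% for the regions of both 6 h lists only. Regions without a basal peak that were found at 6 h in both lists and at 48 h only after sham had 173 kb and 23.3%, and those found at 48 h only after hepatectomy had 205 kb and 22.4%.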

How the data were processed

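The deposited files used were 8 lists of XBP1 peaks with chromosome, start, end, peak name and score, 1 per library. The submitters' processing notes name Bowtie2, MACS 1.4.2 and mm9; peak calling settings and the use of the input as control are not given there. The authors deposited a score per peak, which was read as −log10 of the p-value because its values start near 5. Positions are mm9 and 1-based. The gene table at hand is of another build, so no gene name, sequence or motif was joined to a region. Peaks of the 5 unsilenced lists were merged with Python 3.11.15, pandas 2.3.3 and NumPy 2.4.6, intervals were computed with SciPy 1.17.1 and figures with matplotlib 3.10.9. Counts were checked with bedtools 2.31.1, which gave the same 28099 merged regions and 741 overlaps, and on simulated lists, where 500 of 500 planted gained regions were found. A region's score in a list is that of its best peak. Shares at like score weight other regions to the deciles of the gained regions, with open outer bounds. Groups were taken from sample titles. Named regions were the 12 with the best worst place over the 4 operated lists, the first 5 without a silenced peak, and the 5 with the largest difference in place between the 48 h lists in each direction among the best 25%; leaders of single lists were added after seeing values. The members and lists were chosen with earlier results of these data known.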

Additional observations from a re-analysis of the deposited data

How the results depend on the processing

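The number of gained regions, 1443, depended on how strictly peaks were taken. It was 549 where both peaks had to overlap by 50% or more of their width, which unlike widths lower by construction, 860 with a score of at least 10 in the operated lists, and 105 with equal numbers of highest-scoring peaks. It was 2329 without the 48 h hepatectomy list and 4036 without the 48 h sham list. In the 7 other settings (midpoints within 250 bp, peaks within 500 bp merged, no basal peak within 1 kb, no silenced basal peak either, no peaks over 2 kb or on Y, and the rule without either 6 h list) it lay between 1291 and 1476. The share with a silenced 6 h peak, 51.4%, was 48.4% with midpoints within 250 bp and 42.1% with silenced peaks of a score of at least 10, and between 51.2% and 51.9% in the 4 other settings. Its difference from regions in all 5 lists, -31.2 percentage points, was -9.23 at like 6 h hepatectomy score, -16.2 at like 6 h sham score and -8.83 in 20 bins of the former. From regions of both 6 h lists only, 44.0 points became 17.1, 24.5 and 17.5. The settings with 20 bins, and the comparison with regions found after 1 operation at 48 h, were chosen after seeing the data. The planned motif and gene start settings were not run, since neither was joined to mm9.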

Other observations

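Of the fixed windows of 100 kb with any gained region, 1144 held 1, 123 held 2, 16 held 3 and 1 held 5. The window with 5 was on chromosome 18, from 85000001 to 85100000, and was singled out after its values were seen. It held 16 merged regions, 1 of them with a basal peak, and 3 of its 5 gained regions had a silenced 6 h hepatectomy peak. Their 6 h hepatectomy scores were 62.5, 51.9, 48.2, 136 and 25.7 along the chromosome, and their 48 h sham scores were 8.41, 9.52, 14.7, 12.7 and 9.52. On chromosome 3, the window from 82800001 to 82900000 held the most 6 h hepatectomy peaks of any window, 35, and 1 gained region. Among the windows with 3 gained regions, those on chromosome 13 (60700001 to 60800000) and chromosome 2 (167600001 to 167700000) had a silenced 6 h peak in all 3. Those on chromosome 11 (69700001 to 69800000), chromosome 12 (81200001 to 81300000), chromosome 2 (164200001 to 164300000) and chromosome 4 (150100001 to 150200000) had it in none. The remaining windows of this kind had it in 1 or 2, and over all gained regions the share was 51.4%. Windows with all 3 or none were picked for that count, so no local pattern can be read from them.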
